A study of Mus musculus with 8 samples.

Results

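The B cell to plasma cell switch was followed here through 10 genes, 5 transcription factors that keep B cell identity (Pax5, Bach2, Ebf1, Irf8 and Spib) and 5 genes of the plasma cell programme (Prdm1, Irf4, Xbp1, Igj and Tnfrsf17). The 10 were fixed by name, and each was taken from the 25477 loci of the deposited table as the row that carries its symbol. All 10 had 1 such row, and the row of Spib was merged with its neighbour Mybpc2. The cells were mouse lymphoma cells from spleen, labelled as B220+ GFP+, where B220 marks B lineage cells and green fluorescent protein (GFP) marks cells that carry a reporter. In 4 libraries the cells were treated with a scramble short hairpin RNA (shRNA), a control without a target gene, and their names begin with AO227. In the other 4 they were treated with shCrebbp, an shRNA against the histone acetyltransferase Crebbp. Of these, shCrebbp 1 and 2 have names that begin with AO228, and shCrebbp 3 and 4 have names that begin with AO229. What the prefixes stand for, the mouse strain, the age, the driver of the lymphoma and whether each library came from its own mouse are not given in the sources used here. The p-values therefore measure the spread between these libraries, which may be technical.

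Pax5, Ebf1 and Spib activate genes that make a cell a B cell, and Pax5 and Bach2 hold back genes of the plasma cell programme. Blimp-1, the product of Prdm1, does the reverse, since it represses Pax5 and other B cell genes. Irf4 and Irf8 are closely related factors that share partners of the Ets family such as the product of Spib. High Irf4 drives plasma cell fate, while Irf8 is a feature of germinal centre B cells. Xbp1 then raises the capacity to secrete, Igj encodes the joining chain of secreted immunoglobulin, and Tnfrsf17 encodes BCMA, a survival receptor of plasma cells.

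Values are in FPKM, fragments counted on a gene relative to its transcript length and to the size of the library. Differences below are on the scale log2(FPKM + 1), shCrebbp minus scramble unless stated, and this scale understates the change of low genes such as Tnfrsf17. Absolute depth is unknown, and the share of loci listed at 0 ran from 33.2% in shCrebbp 3 to 51.8% in scramble 2. Crebbp itself measured 25.9 ± 5.54 FPKM in scramble and 22.0 ± 3.66 in shCrebbp libraries (SD, n = 4 each; log2 difference -0.22, exact two-sided permutation p = 0.314), so a lower transcript level of the targeted gene was not detectable. Cd79b, a defining B cell marker, held 716 to 1146 FPKM over the 8 libraries. Sdc1, a defining marker of plasma cells, held 6.88 to 28.4 FPKM.

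The windows of 250 bases before a RefSeq start are shown for 4 of the genes. Bach2 and Prdm1 stand on opposite sides of the switch, Igj is the most abundant of the 10, and Tnfrsf17 is the 1 whose groups did not overlap. No FPKM value below was computed from the windows. They are RefSeq promoter windows of build GRCm38.p6, 5′ to 3′ on the strand of the gene. Bach2 lies at chr4:32417185-32417434 (plus strand), Prdm1 at chr10:44458749-44458998 (minus strand), Igj, named Jchain in RefSeq, at chr5:88527898-88528147 (minus strand) and Tnfrsf17 at chr16:11313559-11313808 (plus strand). The Bach2 window lies inside the measured locus, which runs from 32235985 to 32586920. Most of the Igj window lies inside its locus, which ends at 88528130. For these genes the windows are therefore not the bases before the measured locus. Capitals mark matches to any of 8 motifs searched on both strands.
Bach2: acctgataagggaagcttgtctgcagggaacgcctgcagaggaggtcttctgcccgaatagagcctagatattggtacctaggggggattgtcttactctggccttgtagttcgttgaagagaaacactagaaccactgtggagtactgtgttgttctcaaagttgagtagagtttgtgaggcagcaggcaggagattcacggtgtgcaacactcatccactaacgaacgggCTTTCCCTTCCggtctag
Prdm1: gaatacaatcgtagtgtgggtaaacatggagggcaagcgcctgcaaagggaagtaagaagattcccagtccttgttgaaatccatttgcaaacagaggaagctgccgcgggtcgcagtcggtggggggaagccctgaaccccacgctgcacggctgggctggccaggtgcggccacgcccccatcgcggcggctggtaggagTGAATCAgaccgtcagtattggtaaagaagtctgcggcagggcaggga
Igj: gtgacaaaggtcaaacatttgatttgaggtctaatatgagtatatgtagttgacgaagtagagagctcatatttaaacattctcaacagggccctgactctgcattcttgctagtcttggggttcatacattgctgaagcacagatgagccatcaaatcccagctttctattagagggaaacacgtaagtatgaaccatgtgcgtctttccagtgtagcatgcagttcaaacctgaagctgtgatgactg
Tnfrsf17: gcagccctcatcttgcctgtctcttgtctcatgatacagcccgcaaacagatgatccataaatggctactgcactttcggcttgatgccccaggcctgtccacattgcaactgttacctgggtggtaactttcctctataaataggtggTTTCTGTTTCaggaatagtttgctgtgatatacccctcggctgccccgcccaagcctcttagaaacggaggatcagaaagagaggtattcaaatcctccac

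In the Bach2 window the capitals hold an Ets-IRF composite element (GGAA and GAAA with any 2 bases between them), a motif bound jointly by Ets factors such as Spib and by Irf4 or Irf8, on the strand opposite to the one printed. It overlaps a match to a core motif of Blimp-1 (AGNGAAAG). Of 32851 promoter windows of the same length, 2.3% held the composite element and 7.3% the Blimp-1 core. The Prdm1 window held a match to a loose AP-1 pattern (TGANTCA, 6.75% of windows), with A at the base that the pattern leaves free. The Tnfrsf17 window held an interferon-stimulated response element (GAAA and GAAA with any 2 bases between them, on the other strand; 2.98% of windows), as did a window of Ebf1. The other motifs searched were the unfolded protein response element TGACGTGG (0.563% of windows), the cAMP response element TGACGTCA (1.55%), the octamer ATGCAAAT (1.6%) and the EBF1 palindrome (TCCC and GGGA with any 2 bases between them, 0.779%). None of these 4 motifs was found in the 12 windows of the 10 genes, which says only that these letters are not there. The Blimp-1 core was found in windows of 3 of the 10 genes, Pax5, Bach2 and Ebf1, and these windows lie inside the measured loci. A match describes the letters and is not a binding site.

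The B cell factors showed no shared direction between scramble and shCrebbp cells. Their median log2 difference was -0.0014, against 0.01 over the 11417 loci tested, with 3 lower and 2 higher, where 48% of all loci were lower and 52% higher at any size. limma called 0 of the 5 at an adjusted p under 0.05, where it called 0 of all loci (0%), and 0 of the 5 at an unadjusted p under 0.05, where it called 5.02% of loci. All 10 genes passed the filter of a mean of at least 1 FPKM.

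Pax5, the factor that commits cells to the B lineage, held 143, 92.3, 103 and 118 FPKM in scramble 1 to 4, 80.2 and 128 in the AO228 libraries and 149 and 103 in the AO229 libraries. The groups overlapped fully, since the lowest and the highest value were both in shCrebbp libraries. The log2 difference was -0.0014 (standard error 0.22, 95% confidence interval -0.49 to 0.49; exact permutation p = 1.0). The locus runs on chromosome 4 from 44524798 to 44714581 (mm10).

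Ebf1 (chromosome 11, 44604444 to 45008568), a factor that opens B cell genes ahead of Pax5, held 56.3, 49.0, 60.2 and 69.7 FPKM in scramble libraries, 31.1 and 59.9 in AO228 and 73.0 and 58.4 in AO229. The lowest value, in shCrebbp 1, was also the library lowest in Pax5. Its log2 difference was -0.13 (standard error 0.25; exact permutation p = 0.829).

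Spib, an Ets factor that also opposes plasma cell differentiation, had the smallest ratio of highest to lowest library of the 10, at 1.36. Its locus (chromosome 7, 44501699 to 44532071), merged with Mybpc2, held 111, 119.9, 90.6 and 123 FPKM in scramble libraries, 93.0 and 101 in AO228 and 94.0 and 102 in AO229. All 4 shCrebbp libraries lay below the scramble mean but within the scramble range. Its log2 difference was -0.18 (standard error 0.13, 95% confidence interval -0.48 to 0.13; exact permutation p = 0.171).

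Bach2 (chromosome 4, 32235985 to 32586920), a repressor that delays plasma cell differentiation, held 114, 95.1, 72.9 and 83.6 FPKM in scramble libraries, 109 and 177 in AO228 and 71.9 and 67.8 in AO229. Both AO229 libraries lay below all scramble libraries, and both AO228 libraries lay above the scramble mean. The pooled log2 difference of 0.13 (standard error 0.30; exact permutation p = 0.829) joined these opposite values.

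Irf8 (chromosome 8, 120736376 to 120756792) held 134, 133, 117 and 117 FPKM in scramble libraries, 167 and 139 in AO228 and 127 and 102 in AO229. Both AO228 libraries lay above every scramble library. The pooled log2 difference was 0.07 (standard error 0.17; exact permutation p = 0.686).

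**Figure D1:**
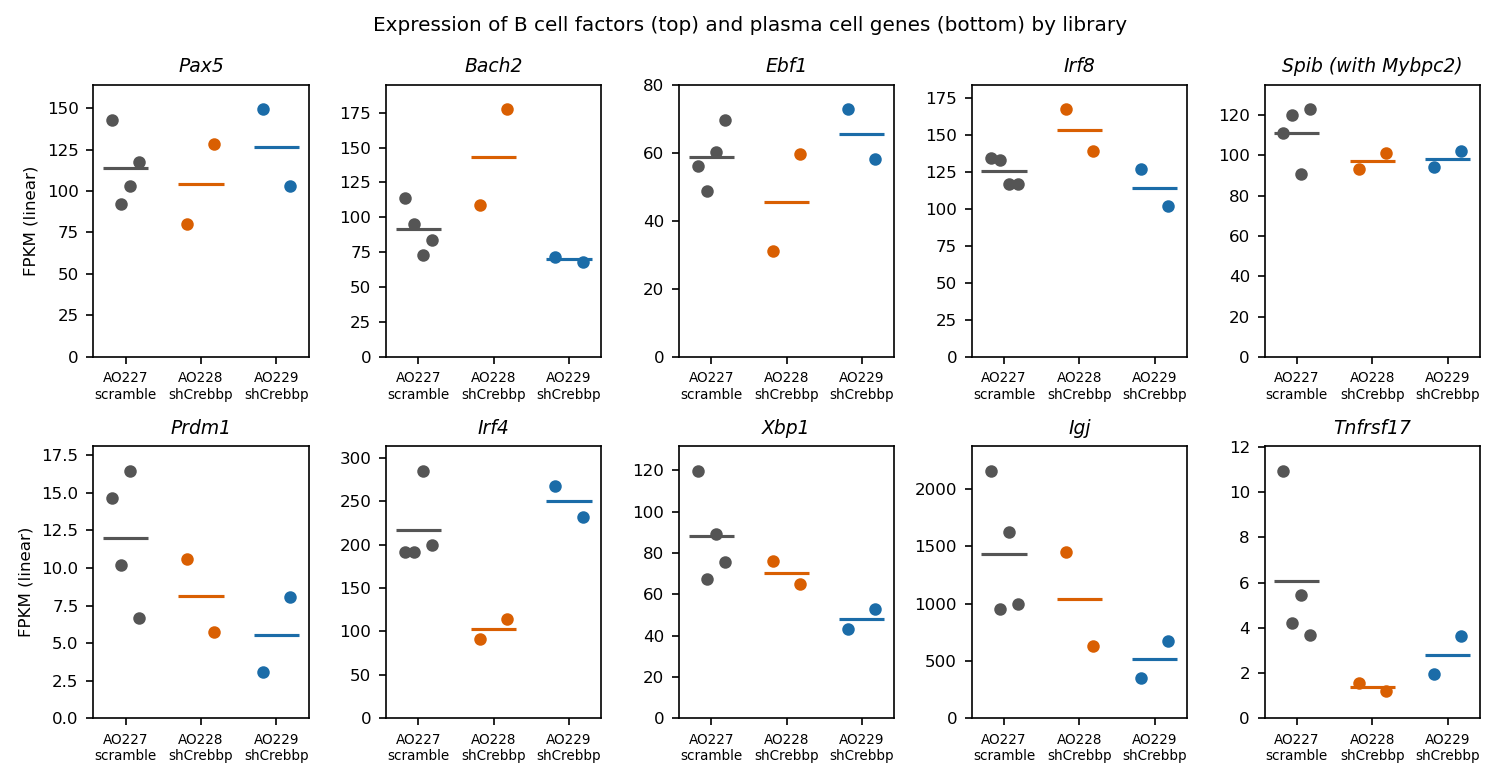
FPKM of each of the 10 genes (linear axes from 0) by library, with 4 scramble libraries (AO227) and the AO228 and AO229 libraries of shCrebbp, 2 each; horizontal lines are means. In AO228 libraries Irf4 sits at 91.0 and 114 FPKM, below the lowest scramble library at 191, while every shCrebbp value of Tnfrsf17 stays under its lowest scramble value of 3.69.

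All 5 plasma cell genes measured lower on average in shCrebbp cells, where 48% of all loci were lower at any size. None of the 5 passed the test over all loci. Their median log2 difference was -0.76, against 0.01 over all loci tested. At an unadjusted p under 0.05 limma gave 3 of the 5 as lower (Xbp1, Igj and Tnfrsf17), where 2.93% of loci were lower at that level. Each of the 5 had an adjusted p of 0.915. The genes were chosen with earlier results of these data known, so the count is a description. In bulk RNA, fewer cells with a plasma cell programme and less of these transcripts per cell cannot be told apart.

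Prdm1 (chromosome 10, 44437174 to 44458757), the gene of Blimp-1, held 14.7, 10.2, 16.5 and 6.66 FPKM in scramble libraries, 10.6 and 5.75 in AO228 and 3.06 and 8.06 in AO229. All 4 shCrebbp libraries lay below the scramble mean. Scramble 4 lay below shCrebbp 1 and 4, so the groups overlapped. The log2 difference was -0.76 (standard error 0.36, 95% confidence interval -1.58 to 0.06; exact permutation p = 0.143).

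Xbp1 (chromosome 11, 5520641 to 5542275) held 119.9, 67.6, 89.2 and 75.6 FPKM in scramble libraries, 76.0 and 65.2 in AO228 and 43.4 and 53.1 in AO229. AO228 libraries lay inside or just below the scramble range, and both AO229 libraries lay below it. The log2 difference was -0.56 (standard error 0.23, 95% confidence interval -1.07 to -0.05; exact permutation p = 0.0857). FPKM of the locus does not tell the spliced, active form of the Xbp1 transcript from the unspliced form.

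Igj (chromosome 5, 88519809 to 88528130) held 2161, 953, 1626 and 996 FPKM in scramble libraries, 1454 and 629 in AO228 and 355 and 677 in AO229. Of the shCrebbp libraries 3 lay below every scramble library, and shCrebbp 1 lay within the scramble range. The spread was wide in both groups, at 40.0% of the mean in scramble and 60.6% in shCrebbp libraries. The log2 difference was -0.98 (standard error 0.43; exact permutation p = 0.114).

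Tnfrsf17 (chromosome 16, 11313784 to 11320070) held 10.9, 4.22, 5.45 and 3.69 FPKM in scramble libraries, 1.56 and 1.21 in AO228 and 1.98 and 3.64 in AO229. Its groups did not overlap, by a gap between 3.64 and 3.69 FPKM, and 1.74% of all loci were lower in this way. The log2 difference was -1.15 (standard error 0.35, 95% confidence interval -1.93 to -0.37; limma adjusted p = 0.915). The exact permutation p of 0.0286 is the smallest that 4 against 4 libraries allow.

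Irf4 (chromosome 13, 30749232 to 30767149) was split by name prefix. It held 191, 191, 285 and 199.8 FPKM in scramble libraries, 91.0 and 114 in AO228 and 267 and 232 in AO229. Both AO228 libraries lay below every scramble library, and both AO229 libraries lay within the scramble range. The pooled log2 difference was -0.42 (standard error 0.34; exact permutation p = 0.371).

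**Figure D2:**
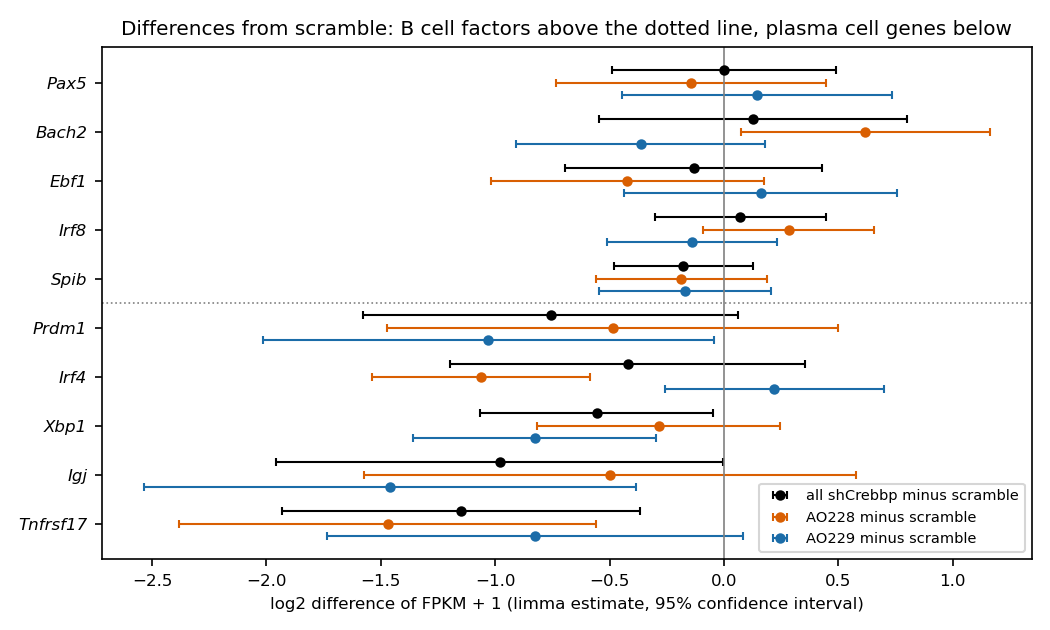
Log2 differences of FPKM + 1 from scramble for the 10 genes (points) with 95% confidence intervals (bars) from limma, for all shCrebbp libraries and for each name prefix, whose estimates share the scramble libraries. The black points of the B cell factors lie between -0.18 and 0.13, and those of the plasma cell genes between -1.15 and -0.42.

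The fit of the 3 prefixes compared the shCrebbp libraries with each other. limma called 146 of 11417 loci between AO229 and AO228 (1.28%), and Irf4 was the 1 of the 10 genes among them, with 0.666% of loci called higher in AO229 and 0.613% lower. Irf4 was 249.6 FPKM in AO229 and 102 in AO228 on average, a log2 difference of 1.28 (standard error 0.24, 95% confidence interval 0.73 to 1.83; limma adjusted p = 0.0497). This call was at the edge of the threshold. It was lost when any 1 of the 8 libraries was left out (limma adjusted p from 0.0509 to 0.345), while the difference stayed between 1.12 and 1.44.

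The other genes did not pass between the prefixes. Bach2 ran opposite to Irf4, at 143 FPKM in AO228 and 69.8 in AO229 (log2 difference -0.98, standard error 0.28; limma adjusted p = 0.121). Irf8 ran the same way as Bach2, at 153 and 114 FPKM (log2 difference -0.42, standard error 0.19; limma adjusted p = 0.314). At an unadjusted p under 0.05, 2 of the 10 genes differed, Irf4 and Bach2, where 16.4% of all loci did.

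The ratio of Irf4 to Irf8, both in FPKM, was 1.43, 1.43, 2.43 and 1.71 in scramble 1 to 4. It was 0.544 and 0.820 in AO228 and 2.11 and 2.28 in AO229. Irf8 exceeded Irf4 in the AO228 libraries, and Irf4 exceeded Irf8 in the 6 other libraries. The ratio of Pax5 to Prdm1 was 9.70, 9.05, 6.25 and 17.6 in scramble libraries, 7.57 and 22.3 in AO228 and 48.9 and 12.8 in AO229. Its values overlapped between the groups, with the highest in shCrebbp 3.

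Against scramble in the same fit, each prefix gave its own values for the 10 genes, and both comparisons share the scramble libraries. In AO228 the log2 difference was -1.06 for Irf4, -1.47 for Tnfrsf17, -0.50 for Igj, -0.49 for Prdm1 and -0.29 for Xbp1. In AO229 it was 0.22 for Irf4, -0.83 for Tnfrsf17, -1.46 for Igj, -1.03 for Prdm1 and -0.83 for Xbp1. For B cell factors it ran from -0.42 (Ebf1) to 0.62 (Bach2) in AO228, and from -0.36 (Bach2) to 0.16 (Ebf1) in AO229. Both AO228 libraries lay below all scramble libraries for 2 of the 10 genes, Irf4 and Tnfrsf17 (9.36% of all loci), and above them for 1, Irf8 (9.57%). Both AO229 libraries lay below them for 4, Bach2, Xbp1, Igj and Tnfrsf17 (11.3%), and above them for 0 (11.1%). At an unadjusted p under 0.05, 3 of the 10 genes differed in AO228 (Bach2, Irf4 and Tnfrsf17; 11.3% of loci) and 3 in AO229 (Prdm1, Xbp1 and Igj; 9.87%). None of the 10 passed in either comparison, where limma called 0% of loci in AO228 and 0.0175% in AO229. Whether the knockdown, the prefix or another property of these libraries goes with Irf4 cannot be told apart, since no prefix holds both groups.

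Of the plasma cell genes other than Irf4, Igj varied together with Prdm1 and with Xbp1 from library to library. Over the 8 libraries Prdm1 and Igj correlated with Pearson r = 0.929 and Spearman rho = 0.905 (exact permutation p = 0.00139, 0.0313 adjusted over 45 pairs for r; p = 0.00456, 0.0964 adjusted for rho). Xbp1 and Igj correlated with r = 0.948 and rho = 0.976 (exact permutation p = 5.95e-04, 0.0268 adjusted; p = 3.97e-04, 0.0179 adjusted for rho). Without the 2 libraries farthest from the median of the first gene, r was 0.864 for Prdm1 with Igj and 0.859 for Xbp1 with Igj. For deviations from the mean of each prefix, r was 0.883 and 0.876. All 6 pairs among Prdm1, Xbp1, Igj and Tnfrsf17 had a positive r, from 0.646 to 0.948, of which these 2 pairs passed after adjustment. No pair with Tnfrsf17 passed, and without the libraries farthest from the median its r was 0.693 with Prdm1, 0.226 with Xbp1 and 0.330 with Igj. For Prdm1 with Xbp1, r was 0.831 (rho = 0.857; exact permutation p = 0.0120, 0.138 adjusted, for r) and 0.691 without 2 libraries. Irf4 did not vary with these genes in this way. Over the 8 libraries its r was -0.022 with Prdm1, -0.154 with Xbp1, -0.169 with Igj and 0.519 with Tnfrsf17. None of these pairs passed. The libraries share their sequencing and scaling, and the labels do not say whether they are independent animals.

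Between B cell factors and plasma cell genes both signs occurred. With Irf4 left aside, r was negative in 8 of 20 pairs of a B cell factor with a plasma cell gene. The lowest was -0.46 for Ebf1 with Igj, and 0 of the 20 passed after adjustment (exact permutation tests, adjusted over 45 pairs). Pax5 and Prdm1, the classical opponents of this switch, had r = -0.456 and rho = -0.524 (exact permutation p = 0.257, 0.774 adjusted, for r; p = 0.197, 0.632 adjusted, for rho). Without shCrebbp 1 and 3 it was -0.07. Among the B cell factors Pax5 and Ebf1 had r = 0.775 and rho = 0.643 (exact permutation p = 0.0130, 0.138 adjusted, for r; p = 0.0962, 0.433 adjusted, for rho). Without shCrebbp 1 and 3 it was 0.374.

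For Irf4 the AO228 libraries stood apart, so r was taken over the 6 libraries of AO227 and AO229, a choice made after the values were seen. It was -0.784 with Bach2 (rho = -0.714; exact permutation p = 0.0750, 0.337 adjusted over 9 pairs) and -0.374 with Irf8 (rho = -0.657; exact permutation p = 0.474, 0.641 adjusted). With Spib it was -0.942 (rho = -0.829; exact permutation p = 0.0153, 0.137 adjusted). With Ebf1 it was 0.466 (rho = 0.714; exact permutation p = 0.347, 0.641 adjusted). With Pax5 it was 0.082 (rho = 0.2; exact permutation p = 0.835, 0.835 adjusted). Without scramble 3 and shCrebbp 3, over the 4 libraries left, r was -0.899 with Bach2, -0.963 with Irf8 and -0.757 with Spib, so the value for Irf8 depends on those 2 libraries. Over the same 4 libraries r was 0.252 with Ebf1 and -0.276 with Pax5. With the AO228 libraries included, r over all 8 was -0.776 with Bach2, -0.798 with Irf8 and 0.037 with Spib, so the value for Spib depends on leaving them out. None of the 9 pairs with Irf4 passed after adjustment.

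**Figure D3:**
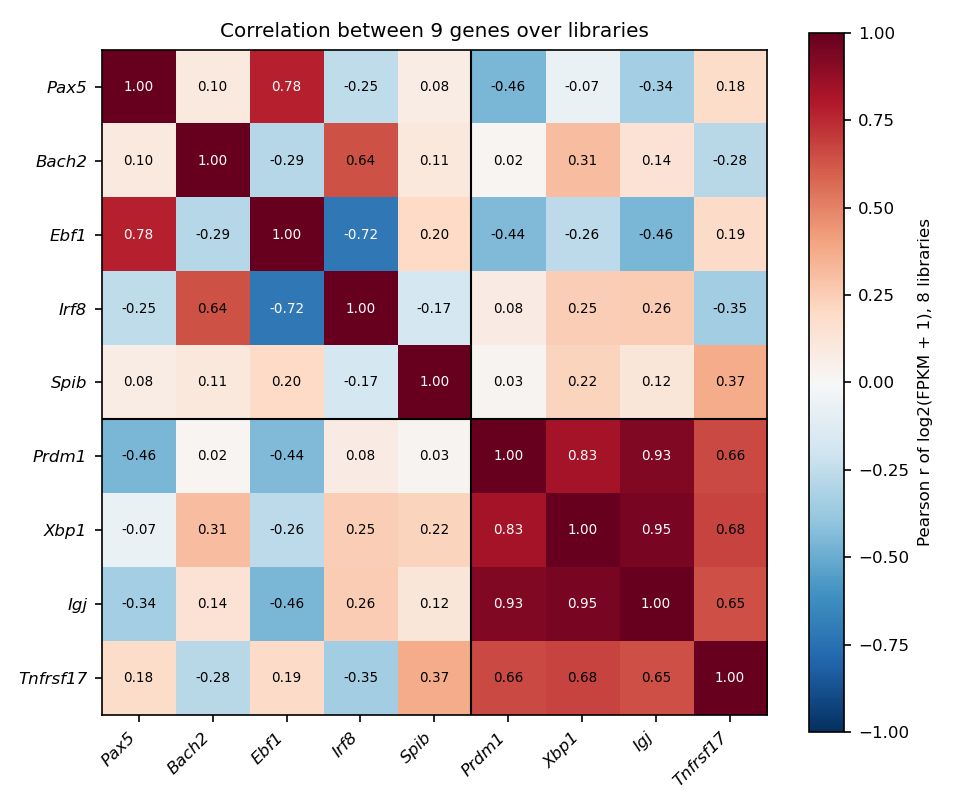
Pearson r of log2(FPKM + 1) over the 8 libraries for each pair of 9 genes, without Irf4; black lines separate B cell factors from plasma cell genes. The lower right block of Prdm1, Xbp1, Igj and Tnfrsf17 is positive throughout, from 0.646 to 0.948, and the blocks that join the 2 sets hold both signs.

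**Figure D4:**
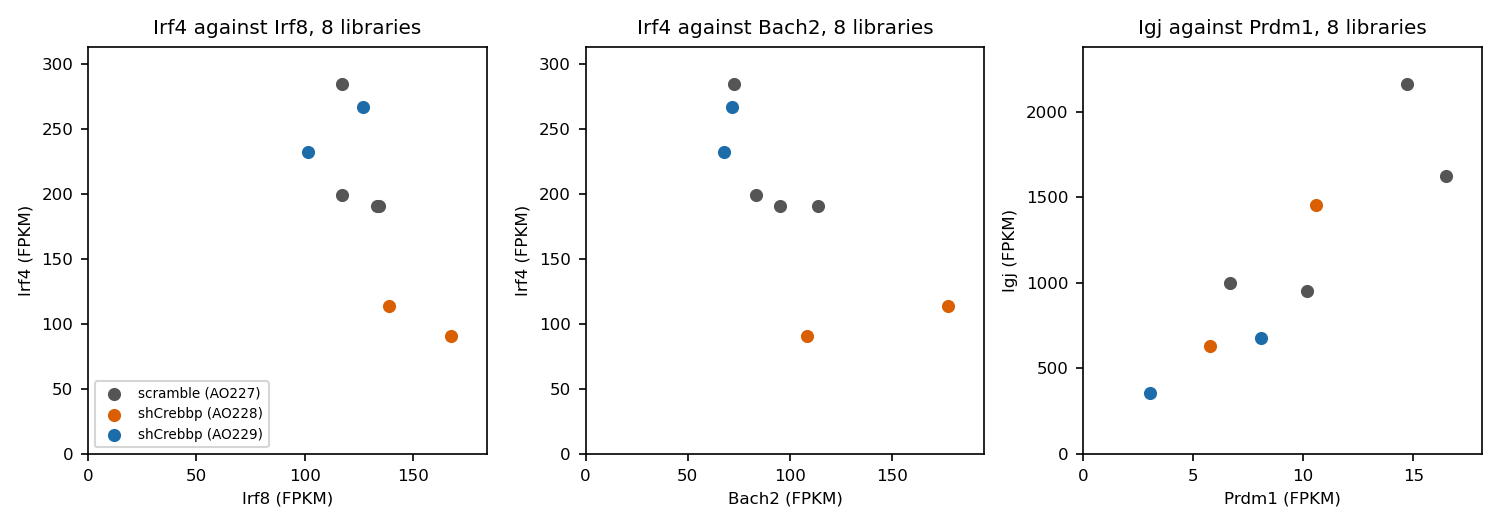
FPKM of Irf4 against Irf8, of Irf4 against Bach2 and of Igj against Prdm1 in the 8 libraries (linear axes from 0), coloured by group and prefix. The AO228 libraries lie low in Irf4, at 91.0 and 114 FPKM, and Igj rises with Prdm1 across all 3 prefixes (r = 0.929).

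Among 6799 loci whose mean reached 5 FPKM, those most like Prdm1 over the 8 libraries were Itm2c (r = 0.965), Igj (0.929), Ube3a (0.915), Derl3 (0.906) and Zfp281 (0.896). Those most like Igj were Sec11c (0.964), Derl3 (0.963), Itm2c (0.955), Xbp1 (0.948) and Zfp281 (0.946). Derl3 acts in the removal of misfolded proteins from the endoplasmic reticulum, and Sec11c is a catalytic subunit of the signal peptidase complex. Derl3 held 38.9, 16.8, 25.1 and 15.4 FPKM in scramble libraries, 23.4 and 15.5 in AO228 and 8.23 and 14.7 in AO229. Those most like Pax5 were Mdc1 (0.971), Arhgef1 (0.965), Chd8 (0.962), Ankrd11 (0.957) and Zswim8 (0.953), so none of the other B cell factors was among its nearest 5. These loci were picked as the highest r of all compared, and the values are descriptions.

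Other plasma cell genes were lower in 25 of 27 cases (48% of all loci), with a median log2 difference of -0.31 against 0.01 over all loci, and 0 of the 27 passed. At an unadjusted p under 0.05, 4 were lower and 0 higher: Dnajb9, Manf, Hspa5 and Atf6, where 2.93% of all loci were lower and 2.08% higher. As background, Hspa5 encodes the chaperone BiP, Dnajb9 one of its cochaperones and Atf6 a sensor of unfolded protein. Other genes of protein folding, export or its stress response in the list did not pass at that level, among them Ern1 (-0.09), Sec61a1 (-0.08), Herpud1 (-0.31) and Edem1 (-0.31). Dnajb9 held 90.8, 95.3, 98.4 and 84.0 FPKM in scramble libraries, 60.6 and 59.6 in AO228 and 51.2 and 50.3 in AO229 (log2 difference -0.73, standard error 0.12; limma adjusted p = 0.521). Hspa5 held 892, 817, 881 and 789 FPKM in scramble libraries, 659 and 622 in AO228 and 518 and 553 in AO229. Manf held 49.7, 49.2, 43.2 and 35.9 FPKM, then 32.3 and 34.2, then 26.5 and 26.0 in the same order. In all 3 genes the shCrebbp libraries lay below every scramble library, as 1.74% of loci did, and the log2 difference was -0.53 for Hspa5, -0.56 for Manf and -0.37 for Atf6 (limma adjusted p = 0.915 each). The regulators Creb3l2 (-0.76) and Zbtb20, in a locus merged with Mir568 (-0.63), came next by p and had the same adjusted p.

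The surface and secretory markers of plasma cells in that list did not separate the groups in this way. Sdc1, which encodes CD138, held 28.4, 7.18, 14.7 and 9.39 FPKM in scramble libraries, 12.5 and 6.88 in AO228 and 8.12 and 8.66 in AO229 (log2 difference -0.52, limma adjusted p = 0.915). Mzb1, an endoplasmic reticulum protein gene of B and plasma cells, held 212 to 320 FPKM in scramble and 186 to 467 in shCrebbp libraries (log2 difference 0.09, limma adjusted p = 0.979). The locus of Pdia4, merged with a microRNA gene, reached 1006.5 FPKM in shCrebbp 2 against 63.8 to 175 in the other libraries, and it made the summed level of the list highest there.

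The B cell list held genes bound or kept on by B cell factors, parts of the B cell receptor and other transcription factors such as Spi1. Of its 27 genes tested, 17 were higher and 10 lower (52% and 48% of all loci). The median log2 difference was 0.05, and 0 passed. At an unadjusted p under 0.05, 3 were lower and 0 higher, where 2.93% and 2.08% of all loci were. These were Cd72, the gene of an inhibitory coreceptor (log2 difference -1.11), Id3, an inhibitor of E proteins (-0.68), and Blnk, a linker of B cell receptor signalling (-0.42), each with a limma adjusted p of 0.915. The next by p were Vpreb3, a gene of the VpreB family (0.50), Cd79b, a signalling chain of the B cell receptor (0.30), and Spi1, an Ets factor (0.24), with the same adjusted p. Id3 held 46.6, 84.6, 47.6 and 66.2 FPKM in scramble libraries, 31.2 and 40.1 in AO228 and 39.9 and 35.8 in AO229.

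Genes listed as repressed by Blimp-1 or typical of germinal centre B cells were lower in 13 of 13 cases (48% of all loci). Whether each member, Zbtb32 included, is repressed by Blimp-1 was not tested. The median log2 difference was -0.29, and 0 passed. At an unadjusted p under 0.05, 2 of the 13 were lower (2.93% of all loci), Id3 and Zbtb32, a zinc finger repressor gene (log2 difference -0.96), and Pcna, a replication factor gene in a locus merged with Tmem230, came next (-0.31; limma adjusted p = 0.915 each). The list shares Bcl6, Id3 and Ciita with the B cell list. The medians of the prefixes went opposite ways, at 0.29 in AO228 and -0.98 in AO229, each against the same scramble libraries. In AO228 5 of the 13 were lower than scramble, and in AO229 12 were. Between AO229 and AO228, 3 of the 13 passed, all lower in AO229, where 0.613% of loci were. S1pr2, a receptor that confines cells to the germinal centre, held 68.9, 83.1, 52.1 and 41.7 FPKM in scramble libraries, 96.2 and 90.6 in AO228 and 16.7 and 24.3 in AO229 (log2 difference between the prefixes -2.16, limma adjusted p = 0.0359). Gcsam, a germinal centre signalling gene, held 25.9, 29.5, 23.6 and 14.3 FPKM, then 104 and 37.2, then 4.67 and 12.1 in the same order (log2 difference -2.88, limma adjusted p = 0.0497). In both genes the AO228 libraries lay above and the AO229 libraries below all scramble libraries. The transcript of Bcl6, the germinal centre regulator, differed by -0.80 and did not pass (limma adjusted p = 0.246). Members that ran the other way, higher in AO229 than in AO228, were Myc by 2.46, Zbtb32 by 1.17 and Id3 by 0.09. None of these passed (limma adjusted p = 0.0674, 0.0968 and 0.924).

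In the B cell list 3 of 27 passed between the prefixes, against 1.28% of all loci (0.666% higher and 0.613% lower in AO229). Fcer2a (CD23), a marker of follicular B cells, was higher in AO229 by 2.29 (limma adjusted p = 0.0443) and the adaptor gene Bank1 by 1.42 (0.0443), while Pou2af1, a coactivator of octamer factors, was lower by -1.10 (0.0479). In the plasma cell list 1 of 27 passed, against the same share, Tnfrsf13b, the gene of the receptor TACI, higher in AO229 by 1.32 (limma adjusted p = 0.0492). With 1 of the 8 libraries left out in turn, the call was kept in 0 of 8 fits for Gcsam and Fcer2a, in 1 for Pou2af1 and Tnfrsf13b (without scramble 2) and in 2 for S1pr2 and Bank1 (without scramble 2 or 4). Of the list genes named here as called, S1pr2, Gcsam and Pou2af1 were lower and Fcer2a, Bank1 and Tnfrsf13b higher in AO229. Whether they go with Irf4, or with Bach2 and Irf8, which were not called, was not tested.

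**Figure D5:**
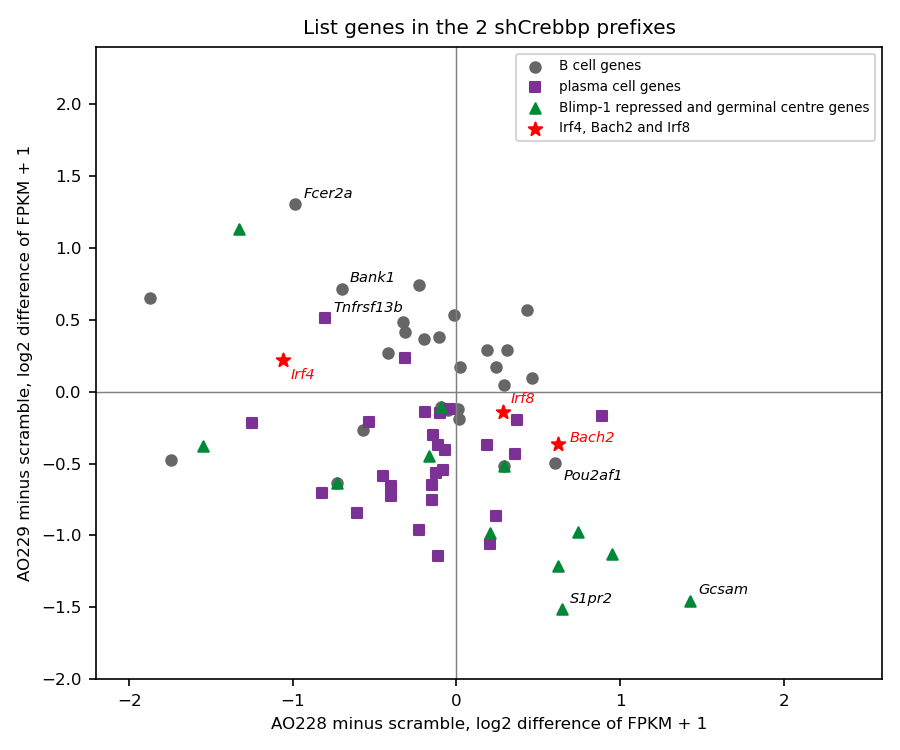
Log2 differences of FPKM + 1 from scramble in AO228 (x axis) and AO229 (y axis) for genes reported of 3 lists (points) and for Irf4, Bach2 and Irf8 (stars); both axes share the scramble libraries, and labels in black mark list genes called between AO229 and AO228. S1pr2 and Gcsam lie low on the y axis and right of 0 on the x axis, and Fcer2a lies in the opposite corner.

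Markers of other cell types were measured beside these genes. Siglech, which defines plasmacytoid dendritic cells, a B220+ cell type that also uses Irf8 and Spib, was at 0 in 4 of 8 libraries and at most 0.919 FPKM. The summed level of the 14 markers of these cells was 89.2 to 113 FPKM in scramble and 68.7 to 81.4 in shCrebbp libraries, and 7 of the 14 had a mean under 1 FPKM. The sums rest mostly on Irf7 (32.1 to 71.9 FPKM), Ly6c2 and Bst2 together. Of the 7 tested, 6 were lower (48% of all loci) and 0 passed, with Ly6c2 at a log2 difference of -1.32 (limma adjusted p = 0.811), Lag3 at -0.64 and Irf7 at -0.32 (limma adjusted p = 0.915 each). Cd3e (T cells) was at most 1.20 FPKM, Csf1r (macrophages) at most 1.12 and Alas2 (red cells) at most 1.96. Lck, a T cell kinase gene in a locus merged with Mir8119, measured 30.3 ± 8.43 FPKM in scramble and 16.6 ± 2.85 in shCrebbp libraries (SD, n = 4 each; log2 difference -0.79, limma adjusted p = 0.915). Emr1, which encodes the macrophage marker F4/80, held 4.13 to 7.84 and 0.996 to 4.26 FPKM (log2 difference -1.23, limma adjusted p = 0.915). Lck, Emr1 and Ly6c2 were lower at an unadjusted p under 0.05, where 2.93% of all loci were. The other T cell markers tested were higher, Cd3d at 0.82 and Cd3g at 0.07 (limma adjusted p = 0.915 and 0.988). Cd3d averaged 1.35 FPKM in scramble and 2.97 in shCrebbp libraries. Of the 4 macrophage and monocyte markers tested, 3 were lower and 1 higher, where 48% of all loci were lower and 52% higher. Of the T cell markers 8 of 9 were matched, with sums of 22.0 to 46.1 and 21.9 to 35.7 FPKM, of which Lck was the largest part. For macrophages and monocytes 9 of 10 were matched, with sums of 291 to 435 and 230.0 to 372, which rest mostly on Cd68 in a locus merged with Eif4a1. Red cell markers summed to 1.96 to 37.8 and 8.74 to 49.9 FPKM, and the markers of plasma cells to 1071 to 2330 (scramble) and 421 to 1591 (shCrebbp), of which Igj made up most. The 5 matched of 6 B cell markers summed to 2075 to 2527 FPKM in scramble and 2255 to 2907 in shCrebbp libraries. The part of these cell types in the results above was not tested.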

How the data were processed

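RNA from 8 libraries, 4 scramble and 4 shCrebbp, was analysed. Per the labels' protocols, total RNA was extracted with Trizol and made into stranded libraries after removal of ribosomal RNA. Build mm10 and the tools CASAVA 1.8, TopHat2 and Cufflinks are named in the submitters' processing notes, with no roles or parameters. The authors deposited 1 table with an FPKM value for each locus in each library, a unit read from the values and the locus identifiers. Of 13 sample columns, 5 matched no sample and were not used, and 1 emptied line was left out. Starts were converted to count from 1.

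Values were transformed as log2(FPKM + 1), and the 11417 loci whose mean reached 1 FPKM were fitted with limma 3.58.1 in R 4.3.3 (moderated by empirical Bayes with a trend on the mean, two-sided, adjusted by Benjamini-Hochberg over all loci, threshold 0.05). The groups were fitted as 2 coefficients and the prefixes as 3. Single genes and correlations were tested with exact two-sided permutation tests (Python 3.11.15, scipy 1.17.1). On simulated data with 200 changed genes among 11417, the group fit recovered 45.0% of 2-fold and 86.8% of 4-fold changes over 20 draws. On average 7.3 unchanged genes were called in a draw. The changed genes were drawn from those with a mean over 2 on this log2 scale, and the simulated spread was independent, with no prefix difference. Recovery for lower genes or under a split by prefix was not simulated. Low values gave relative depths that were not resolved for scramble 2 and shCrebbp 3, so depth was described by loci at 0 alone, and no counting interval was computed.

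The 10 genes, the lists, the motifs and the tests were chosen with earlier results of these data known. Named genes were the 10, the list genes of smallest p (6 for the B cell and plasma cell lists, 3 for others), list genes called between the prefixes, and the 5 loci most like Prdm1, Igj and Pax5. For the marker lists of macrophages and red cells, sums, defining markers and the genes with an unadjusted p under 0.05 are given in place of the 3 of smallest p. Sdc1, Mzb1, Ern1, Sec61a1, Herpud1, Edem1, Pdia4, Cd79b as a marker, Bcl6, Myc and the defining markers were named in addition, after their values were seen. Values of 2 list genes are not reported here. Replicates were numbered in the order listed. Alternatives were other pseudocounts, filters, scalings, summed loci, each prefix alone and each library left out. Leaving out scramble 2 and shCrebbp 3 together was added after the data were seen.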

Additional observations from a re-analysis of the deposited data

Results flagged for a closer look

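Irf4 in scramble 3 (285 FPKM) lay far above the other 3 scramble libraries, at 191 to 199.8 FPKM. It was the 1 such value among 20 groups of 4 libraries examined, where chance flags about 1 in 20. Irf4 also differed between the prefixes of the shCrebbp libraries, by 1.28 on the log2 scale (AO229 minus AO228, limma adjusted p = 0.0497), a test of the difference itself. Both AO228 libraries lay below the scramble mean and both AO229 libraries above it. Bach2 showed the opposite pattern, with both AO228 libraries above and both AO229 libraries below the scramble mean (log2 difference -0.98, limma adjusted p = 0.121), which did not pass.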

How the results depend on the processing

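Under every alternative run, 0 of the 10 genes passed between shCrebbp and scramble. The median of the plasma cell genes stayed between -0.99 and -0.59 with 1 library left out, and that of the B cell factors between -0.15 and 0.10. With only AO228 libraries the median of the plasma cell genes was -0.50. Without scramble 2 and shCrebbp 3, which hold the most and the fewest loci at 0, these medians were -0.72 and -0.12. Loci called between the groups went from 0 to 1 with only AO228 libraries, to 3 with only AO229 libraries and to 0 to 2 with 1 library left out. With only AO229 libraries the sign turned for Pax5 (0.14), Bach2 (-0.36), Ebf1 (0.16), Irf8 (-0.14) and Irf4 (0.22), and quantile normalization gave 0.042 for Pax5. With 1 library left out, the difference ran from -0.14 to 0.16 for Pax5, -0.15 to 0.30 for Bach2, -0.28 to 0.12 for Ebf1 and -0.043 to 0.19 for Irf8. It ran from -0.67 (without shCrebbp 3) to -0.15 (without shCrebbp 1) for Irf4, -0.99 to -0.47 (without shCrebbp 3) for Prdm1, -1.34 to -0.66 for Igj, -0.68 to -0.40 for Xbp1 and -1.36 to -0.86 for Tnfrsf17.

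Between AO229 and AO228, the 146 calls became 27 without a filter, 240 at a mean of at least 5 FPKM (where Tnfrsf17 was not tested) and 12 without scramble 2 and shCrebbp 3. They were 2 to 276 with 1 library left out: 2 without scramble 1, 276 without scramble 2, 3 without scramble 3, 105 without scramble 4, and 8, 13, 11 and 70 without shCrebbp 1 to 4. Irf4 was not called without a filter (1.28, limma adjusted p = 0.0926) or without scramble 2 and shCrebbp 3 (1.18, limma adjusted p = 0.245). In that contrast the difference for Spib was -0.0041 after quantile normalization and ran from -0.044 to 0.075 with 1 library left out. For Prdm1 it was 0.035 without scramble 2 and shCrebbp 3, and it ran from -1.12 to 0.035 with 1 library left out. For Bach2 it ran from -1.33 to -0.63, for Irf8 from -0.58 to -0.26, for Igj from -1.57 to -0.36 and for Tnfrsf17 from 0.32 to 0.96. For Pax5 it ran from -0.046 to 0.62. The cause was not tested. Of the 25 pairs of a B cell factor with a plasma cell gene, Irf4 included, 10 had a negative r, and 16 did for deviations from prefix means. No paired analysis was possible because no label ties a scramble library to an shCrebbp library. FPKM limits precision to what replicates show.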
